A study of Mus musculus with 24 samples.

Results

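Macrophages given LPS were compared between OGT knockout (KO) and wild-type (WT) mice. The members are the 8 LPS libraries among the 24 libraries of the series, 4 KO and 4 WT, chosen by the treatment in their labels. All were made from total RNA of bone marrow-derived macrophages of C57BL/6J mice aged 12 weeks, and LPS was given at 100 ng/ml for 12 hours, a state the labels also call M1. The other 16 libraries, 4 of each genotype unstimulated (M0) and 4 of each genotype after IL-4 (M2), entered the same fit and serve as a reference where the LPS result is set against other states. The labels name no allele, promoter or deleter line for the knockout, and do not say whether the libraries of a group came from separate animals or separate cultures. The p-values therefore measure the spread between libraries of a group, which may in part be technical. That spread was estimated over all 24 libraries, not over the LPS libraries alone. A gene that was not called is thus not shown to be equal between genotypes after LPS. Names of libraries combine the genotype with the number that the label codes carry, 1 to 4 for WT and 5 to 8 for KO.

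OGT is the enzyme that attaches a single N-acetylglucosamine to serine and threonine residues of nuclear and cytoplasmic proteins, and OGA, encoded by Mgea5 (now Oga), removes it. The sugar donor comes from the hexosamine pathway, which draws on glucose, glutamine, acetyl-CoA and UTP. LPS is sensed by TLR4 with CD14 and MD-2. The adaptors MyD88 and TRIF carry the signal to NF-kB, MAP kinases and IRF3, and secreted interferon-beta then acts through JAK and STAT proteins on a later group of genes that includes the interferon-inducible GTPases. By 12 hours macrophages hold both kinds of product as well as the feedback inhibitors of the pathway.

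In these LPS libraries, Il12b, encoding the p40 chain that IL-12 and IL-23 share, was 11.8-fold higher in KO, and Nos2, the inducible nitric oxide synthase, was 4.60-fold higher. All 18 interferon-inducible GTPases that could be tested were higher in KO, with a median log2 fold change of 0.79. Cd40, Cd274, Slamf7, Ptgs2, Cxcl9 and Casp4 were also higher. Mmp9, a gelatinase, was 6.75-fold lower in KO, and several surface receptors were lower with it, among them Cx3cr1, Siglece, Marco, Ccr1 and Clec5a. Tnf, Il1b, Cxcl10, Ccl5, Nfkbia and Nlrp3 did not pass the test.

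Depth divided the LPS libraries. The libraries WT 1, WT 2 and KO 7 held 209368, 201097 and 172771 gene counts, and the other 5 held 65241485 to 77270026. Values are CPM, gene counts scaled to a library of 1e+06 effective counts. A count of 0 allows up to 3 counts, which is 15.5 to 17.9 CPM in the shallow libraries and 0.0496 to 0.055 CPM in the deep LPS libraries, for counting error only. The 4 KO libraries also fell into pairs by label number. Numbers 5 and 6, and numbers 7 and 8, differed from each other by 8.51 to 28 times the counting noise (chi-square per degree of freedom over genes) in the unstimulated and IL-4 states, against 47 to 74.8 for other KO pairs, and KO 5 and KO 6 differed by 7.65 times after LPS, against 80.8 for KO 5 and KO 8. By this measure the WT libraries showed no pairs in the unstimulated and IL-4 states. Numbers 1 and 2, and numbers 3 and 4, differed by 11.2 to 32.2 times, against 12.1 to 32.9 for other WT pairs. In Ifi202b, given at the end, numbers 1 and 2 did stand apart from numbers 3 and 4 in all 3 states. All pairs differed by more than counting noise, but LPS pairs with a shallow library by only 1.31 to 2.84 times. Each library was counted as 1 replicate. A difference above counting noise does not show that libraries came from separate animals or cultures. Because of the KO pairs, counts of calls are also given with the libraries of numbers 1 and 2, 3 and 4, 5 and 6, and 7 and 8 summed within each state, called the number pairs below. The WT libraries were summed in the same way, although the noise showed no pairs among them. The sum of counts over 4 Y-linked genes was 0 in all 8 LPS libraries, with Xist at 25.8 to 73.2 CPM.

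Markers of other cells were measured beside the macrophage genes. Macrophage markers were present in every library, and their summed level was 15430 to 15960 CPM in WT and 8671 to 10650 CPM in KO. Most of that difference came from Lyz2, with means of 8314 CPM in WT and 3700 CPM in KO. Of the 8 macrophage markers 5 were lower, Lyz2 among them, Cd68 (0.41) and Mertk (0.65) were higher, and Fcgr1 was not called. All 10 stromal markers were detected, 6 were higher in KO and none lower, and their summed level was 12910 to 15920 CPM in WT and 18010 to 20550 CPM in KO. The stromal sum was higher in KO without stimulation too, at 17510 to 22560 CPM against 13150 to 14880 CPM. Endothelial markers summed to 20.6 to 53.2 CPM in WT and 91.8 to 143.5 CPM in KO, with 4 of 8 higher. Of 8 osteoclast markers, 4 were lower, Mmp9 among them, and 1 was higher. Neutrophil markers stayed at 29.9 to 63 CPM in all 8 libraries and T and NK cell markers at 0 to 6.56 CPM. In bulk RNA, fewer cells of a type and less RNA per cell cannot be told apart. The part that stromal and endothelial RNA had in the results below was not tested. Some genes that those cells also make are pointed out below, but not every such gene is marked.

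Ogt, the targeted gene (chrX:101640011-101684351, GRCm38.p6), was lower but not absent in the KO libraries. Its level was 56.7, 68, 55 and 57.2 CPM in WT and 34.2, 37.6, 53.8 and 37 CPM in KO, in order of label number, as for all values by library below. The KO 7 value lay just under WT 3 and the other 3 KO values well under all WT values, and the log2 fold change (KO over WT, with its standard error here and below) was -0.63 ± 0.072 (adjusted p = 4.22e-07). The counts cover the whole gene, so they do not show which part of it was removed. Mgea5 fell as well, by a log2 fold change of -0.35 ± 0.069 (adjusted p = 0.00037). Within the hexosamine pathway Gfpt1, the enzyme of the committed step, had 41.3, 94.2, 84.4 and 81.5 CPM in WT and 110.3, 118, 108 and 108 CPM in KO, with no overlap between genotypes. Its log2 fold change was 0.45 ± 0.10 (adjusted p = 0.00102). Amdhd2, which removes the acetyl group from N-acetylglucosamine 6-phosphate, was also called higher at 0.34, and the other 7 of 11 genes of the group were not called.

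Across the 14693 genes tested, 2384 were higher in KO after LPS (16.2%) and 2150 were lower (14.6%), at an adjusted p under 0.05 from edgeR's quasi-likelihood test. Of the 6030 genes with at least 30 CPM in either genotype, 24.6% were higher and 16.6% lower. The 4 KO values lay all above the 4 WT values in 8.04% of genes and all below in 4.83%. Most changes were modest: 405 of the higher genes and 135 of the lower ones passed 2-fold. Without the 3 shallow libraries 2265 of the higher and 2027 of the lower genes kept their call, and none reversed. With number pairs summed, 1142 genes were higher and 946 lower.

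The leading genes were taken as the 15 in each direction with the largest change among called genes with no overlap between genotypes, at least 30 CPM in the higher genotype and a call in the same direction without the 3 shallow libraries. Il12b (chr11:44400063-44414677) led. It had 10.3, 26.1, 12.8 and 18.6 CPM in WT and 171, 180.2, 179 and 204 CPM in KO, every KO library far above every WT library, and its log2 fold change was 3.56 ± 0.24 (adjusted p = 5.2e-11). The 300 bases around its start, from 250 before to 50 after it, are shown for this gene because it carries the largest change among the leading genes. They lie at chr11:44399813-44400112 on the plus strand (RefSeq, GRCm38.p6).
Il12b: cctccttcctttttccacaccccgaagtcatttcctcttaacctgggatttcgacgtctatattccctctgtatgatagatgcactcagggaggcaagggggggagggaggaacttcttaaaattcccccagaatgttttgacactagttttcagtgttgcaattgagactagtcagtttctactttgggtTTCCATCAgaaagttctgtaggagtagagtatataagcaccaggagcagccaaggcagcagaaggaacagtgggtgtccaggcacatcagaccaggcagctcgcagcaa
Capitals mark a match, on the minus strand, to TGATGNAA, the core shared by ATF4 and C/EBP composite sites, found on either strand in 4.06% of all 27025 promoters. Searched the same way, this window had 0 matches to the kB-like GGANTNTCC, held by 3.68% of promoters, and 0 to the interferon-response motif described below. TGATGNAA was the only pattern of those searched that matched in this window. A match is a description of letters only. Each pattern is a single fixed form, so 0 matches does not show that sites of that kind were absent.

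Clic5, a chloride intracellular channel protein, had 0, 10.5, 7.22 and 8.47 CPM in WT and 67.7, 71.3, 47.8 and 52.7 CPM in KO, with a log2 fold change of 3.02 ± 0.24 (adjusted p = 1.41e-09). Cd5l, a secreted scavenger-receptor protein of macrophages, had 15.5, 5.23, 12 and 13.9 CPM in WT and 81, 77.7, 71.8 and 88.9 CPM in KO. Its log2 fold change was 2.67 ± 0.14 (adjusted p = 1.45e-12). Both genes were near or under the limit of the shallow WT libraries and high in KO 5, KO 6 and KO 8 at full depth. Nos2 had 87.7, 78.5, 94.9 and 111 CPM in WT and 555, 556, 245 and 354 CPM in KO, with KO 5 and KO 6 the highest. Its log2 fold change was 2.20 ± 0.23 (adjusted p = 9.75e-08), and it was also higher without stimulation (1.66). Slc40a1, ferroportin, the cell's iron exporter, had 0, 10.5, 11.3 and 9.93 CPM in WT and 53.9, 57.9, 29.9 and 29.5 CPM in KO, and its log2 fold change was 2.15 ± 0.28 (adjusted p = 2.94e-06).

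The fatty-acid-binding proteins Fabp3 and Fabp4 rose together. Fabp3 had 77.4, 26.1, 43.6 and 46.2 CPM in WT and 197, 195, 173 and 162 CPM in KO, and the log2 fold changes were 2.03 ± 0.10 for Fabp3 and 1.88 ± 0.12 for Fabp4. Hspa1a, an inducible heat shock protein, had 36.1, 41.9, 34 and 33.9 CPM in WT and 185, 175, 53.8 and 90.7 CPM in KO. It shares near-identical sequence with Hspa1b (1.40), so the split of reads between them is uncertain. Serpina3g, an intracellular protease inhibitor, rose by 2.06 ± 0.20, and Slamf1, a self-ligand receptor of leukocytes, by 2.05 ± 0.32. Entpd1, the ectonucleotidase CD39, had 0, 0, 10.3 and 10.5 CPM in WT and 43.1, 39.3, 17.9 and 40.3 CPM in KO, and KO 7 was the lowest of the KO libraries. Tma16, tied to ribosome assembly, had 82.5, 52.3, 72.7 and 70.3 CPM in WT and 270.2, 271, 275 and 273 CPM in KO, a clear separation in the deep and the shallow libraries. The remaining higher leading genes were Tgtp1 (1.79), the endothelin receptor Ednrb (1.78), and Ndrg1, a hypoxia-responsive gene (1.73).

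**Figure D1:**
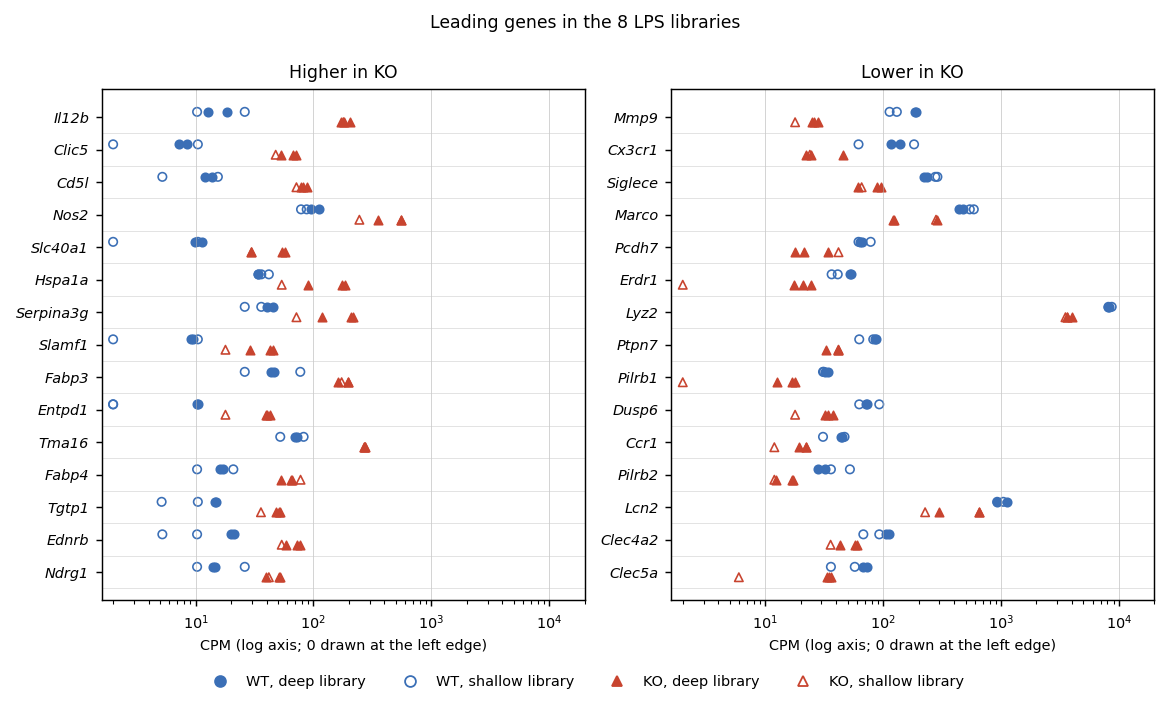
CPM in each LPS library (log axis) of the 15 leading genes in each direction, WT and KO. Filled points are libraries of full depth, open points are the 3 shallow libraries, and a value of 0 is drawn at the left edge. By the rule for the choice of genes, no WT and KO points of a gene overlap.

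On the lower side Mmp9 (chr2:164940326-164955850) led. It had 114, 131, 188 and 188 CPM in WT and 25.1, 26.1, 17.9 and 28.2 CPM in KO, with a log2 fold change of -2.76 ± 0.18 (adjusted p = 3.44e-11), and it was lower without stimulation too (-2.86). Mmp9 is also 1 of the 8 osteoclast markers, of which 4 were lower in KO, itself included. The others were Nfatc1 (-0.35) and, near the limit of detection, Ocstamp (3.48 CPM in WT, 0.66 CPM in KO) and Dcstamp (0.62 and 0.12 CPM). Acp5, Ctsk and Calcr were not called, and Atp6v0d2 was higher (0.51). Cx3cr1, the fractalkine receptor, had 61.9, 183, 139.8 and 116 CPM in WT and 24.4, 22.3, 23.9 and 46.1 CPM in KO, and KO 8 was the highest KO library while still under all WT libraries. Its log2 fold change was -2.04 ± 0.20 (adjusted p = 3.97e-08). Siglece, an inhibitory sialic-acid receptor, had 289, 277, 223 and 238 CPM in WT and 95.3, 88.9, 65.8 and 61.1 CPM in KO, and its log2 fold change was -1.56 ± 0.18 (adjusted p = 6.28e-07). Marco, a scavenger receptor for bacteria, had 588, 544, 438 and 480.1 CPM in WT and 122, 124, 281 and 285 CPM in KO. Its log2 fold change was -1.42 ± 0.37 (adjusted p = 0.00485), beside -2.51 without stimulation.

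Lyz2, the macrophage lysozyme, had 8685, 8155, 8260 and 8156 CPM in WT and 3662, 3640, 3522 and 3974 CPM in KO, and its log2 fold change was -1.17 ± 0.074 (adjusted p = 3.44e-11). Its near-identical copy Lyz1 moved with it (-0.92), and the split of reads between them is uncertain. Dusp6, a phosphatase of ERK kinases, had 92.8, 62.8, 73.6 and 71 CPM in WT and 37.4, 34.3, 17.9 and 32.2 CPM in KO, with a log2 fold change of -1.08 ± 0.11 (adjusted p = 4.22e-08). Ptpn7, another phosphatase of MAP kinases, fell by a log2 fold change of -1.14 ± 0.12. Lcn2, a siderophore-binding lipocalin, had 928, 1046, 925 and 1121 CPM in WT and 654, 650.0, 227 and 299 CPM in KO, and its log2 fold change was -1.01 ± 0.23 (adjusted p = 0.00169). The chemokine receptor Ccr1 (-1.06), the DAP12-coupled lectin Clec5a (-0.99), the inhibitory lectin Clec4a2 (-1.0), the paired receptors Pilrb1 (-1.09) and Pilrb2 (-1.01, near-identical copies), Pcdh7 (-1.41) and Erdr1 (-1.32) completed the set. Of the 30 leading genes, 13 kept their call in all 19 alternative analyses, and 29 did so when thinning of the deep libraries and summing of number pairs were set aside.

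**Figure D2:**
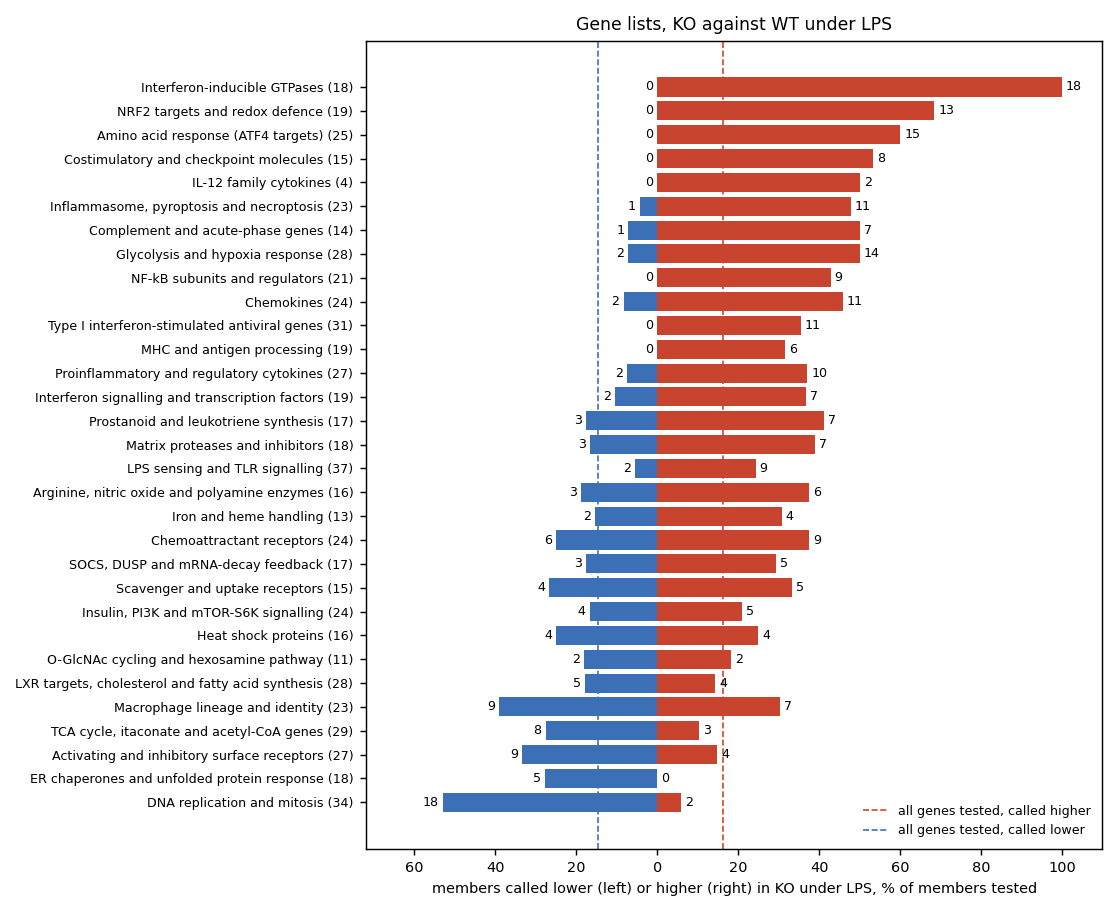
Percentage of the tested members of each of the 31 gene lists called higher (bars to the right) or lower (bars to the left) in KO after LPS. Dashed lines mark the percentages over all genes tested, 16.2 higher and 14.6 lower, and the interferon-inducible GTPases stand at the top with 18 of 18 higher. Among genes of at least 30 CPM, not drawn, the percentages were 24.6 and 16.6.

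Many list values depended on a pair of KO libraries. Beside a list, medians by KO pair are the median log2 fold change without the libraries of KO 5 and KO 6 in all states, then that without KO 7 and KO 8. They are given where one of them moved by more than 1.5 times or changed sign. Counts that moved as far when 1 library was left out are given there as well. List counts after LPS stand beside 16.2% higher and 14.6% lower over all genes tested, also where these shares are not repeated.

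Of 37 tested genes of LPS recognition and TLR signalling, 9 were higher and 2 lower, and with number pairs summed 3 and 1. Over all genes tested 16.2% were higher and 14.6% lower. Of the 37 genes 29 had at least 30 CPM, and among all genes of that level 24.6% were higher and 16.6% lower. The list's share of higher genes was close to that 24.6%. The median of the list was 0.12, against 0.01 over all genes tested, with medians by KO pair of -0.0015 and 0.20. Without WT 3 the list had 4 higher genes and 1 lower, without WT 4 it had 5 and 1, and without KO 8 it had 15 and 4. Leaving out KO 5 and KO 6 gave 4 higher, and leaving out KO 7 and KO 8 gave 18. Tlr4, the LPS receptor, had 30.9, 41.9, 28.2 and 26.4 CPM in WT and 37.2, 39.2, 29.9 and 30.1 CPM in KO, with overlap between genotypes and a log2 fold change of 0.36 ± 0.12 (adjusted p = 0.0264). Cd14, the co-receptor that hands LPS to TLR4, had 1135, 1156, 1133 and 1267 CPM in WT and 984, 942, 819 and 916 CPM in KO, all KO values under all WT values, and fell by a log2 fold change of -0.35 ± 0.076 (adjusted p = 0.00114). Tlr9, an endosomal DNA sensor, showed the largest change of the receptors at 1.43 ± 0.24, from a low level of 12.9 ± 2.80 CPM (SD, n = 4) in WT. Cd180 (0.58), Tlr1 (0.36), the adaptor gene Ticam1 (0.47) and the kinase gene Irak2 (0.36) rose, and Irak1 fell (-0.27). Myd88 (-0.06, adjusted p = 0.679), Tlr2 (-0.19) and the inhibitor Irak3 (-0.06) were not called.

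IL-12 family subunits divided. Il12b is given above, and Il27, the p28 subunit of IL-27, had 15.5, 31.4, 20.6 and 24.9 CPM in WT and 65.4, 61.5, 59.8 and 46.5 CPM in KO, with no overlap and a log2 fold change of 1.35 ± 0.18 (adjusted p = 2.95e-06). Its partner Ebi3, which is shared with IL-35, was not called (0.11, adjusted p = 0.694). Il12a, the p35 partner of Il12b in IL-12, stayed at 1.64 ± 2.42 CPM in WT and 0.599 ± 0.456 CPM in KO (SD, n = 4), too few counts for a comparison in the shallow libraries, and was not called. Il23a, the partner in IL-23, was under the filter, with at most 10 counts in any LPS library.

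Of the 27 tested genes for other cytokines, 10 were higher and 2 lower (median 0.39, and 0.13 and 0.49 by KO pair; 6 and 1 with number pairs summed), while without stimulation 2 were higher and 7 lower, where 11.8% of all genes were higher and 10.5% lower. Without WT 3 the list had 6 higher genes, without WT 4 it had 1 lower gene, and without KO 5 and KO 6 it had 4 lower genes. Tnf had 237, 199, 212 and 249 CPM in WT and 273, 275, 275 and 213 CPM in KO, overlapping ranges with KO 8 lowest, and was not called (0.16 ± 0.13, adjusted p = 0.379). Il1b had 1047, 853, 689 and 912 CPM in WT and 524, 529.8, 514 and 601 CPM in KO. All 4 KO values lay under the 4 WT values, yet the fit did not call it (-0.64 ± 0.31, adjusted p = 0.128). Il6 had 25.8, 31.4, 21.2 and 28.7 CPM in WT and 43.5, 47.1, 0 and 40.4 CPM in KO, and KO 7 held no count of it. Its log2 fold change was 0.76 ± 0.19 (adjusted p = 0.00289).

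Among the secreted regulators Il10, the main anti-inflammatory cytokine of macrophages, was low but higher in KO, at 2.66 ± 3.07 CPM in WT and 11.1 ± 8.27 CPM in KO (SD, n = 4), with a log2 fold change of 1.49 ± 0.29 (adjusted p = 0.000342). Ifnb1, which encodes interferon-beta, was near the limit of detection at 0.160 ± 0.190 and 1.10 ± 0.739 CPM, and passed the test at 2.19 ± 0.39 (adjusted p = 0.000766). Lif (0.74), Csf1 (0.49), Vegfa (0.59), Il15 (0.40) and Edn1 (1.34), which endothelial cells also make, were higher. Tgfb1 had 212, 251, 231 and 247 CPM in WT and 190.1, 167, 126 and 127 CPM in KO, all KO values lower, with a log2 fold change of -0.57 ± 0.12 (adjusted p = 0.000542). Spp1, osteopontin, fell by -0.28 ± 0.076 on the log2 scale.

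Chemokines gave 11 higher and 2 lower of 24 tested (median 0.55, and 0.15 and 0.57 by KO pair; 4 and 1 with number pairs summed), and without stimulation none was higher and 7 were lower. Without WT 3 there were 6 higher, and without KO 5 there were 7. Cxcl9, a ligand of CXCR3 that attracts T cells, had 351, 382, 405 and 438 CPM in WT and 1202, 1273, 915 and 1142 CPM in KO, with a log2 fold change of 1.51 ± 0.35 (adjusted p = 0.00182). Its relatives Cxcl11 (0.57, called) and Cxcl10 (0.64, adjusted p = 0.195) had smaller values. The macrophage inflammatory proteins Ccl3 and Ccl4 were higher, and Ccl3 had 217, 178, 176 and 216 CPM in WT and 332, 337, 281 and 322 CPM in KO, with a log2 fold change of 0.74 ± 0.084 (adjusted p = 4.02e-07). Ccl5 (0.07) and the neutrophil attractants Cxcl1 (0.58) and Cxcl2 (0.12) were not called. Ccl12 (0.77), Ccl2 (0.36) and Ccl22 (2.02) were higher, while Ccl6 (-0.76) and Ccl9 (-0.43) fell. Cxcl12 had 614, 429, 537 and 609.7 CPM in WT and 1228, 1296, 729.6 and 935 CPM in KO and was higher (0.96 ± 0.18). It is among the 10 stromal markers, whose sum was higher in KO.

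Of the NF-kB subunits Rel alone was called, and several inhibitors were higher. Of 21 tested genes, 9 were higher and none lower (median 0.25, and 0.05 and 0.34 by KO pair; 5 and 0 with number pairs summed), while without stimulation none was higher and 13 were lower. After LPS, 5 were higher and 1 lower without KO 5 and KO 6, and 14 were higher without KO 7 and KO 8. Rela (-0.06), Relb (0.14), Nfkb1 (-0.03), Nfkb2 (-0.06) and Nfkbia (0.02) were not called, and Rel (0.59) was higher at a low level. Tnip3, an inhibitor that binds A20, had 103, 126, 132 and 143 CPM in WT and 307, 309, 269 and 199 CPM in KO, with a log2 fold change of 1.01 ± 0.25 (adjusted p = 0.00361). The inhibitors Nfkbib (0.72) and Nfkbie (0.39), the A20 partner Tnip1 (0.36), and the target genes Traf1 (0.45) and Icam1 (0.34) were higher. The A20 gene itself, Tnfaip3, did not pass (0.33 ± 0.13, adjusted p = 0.0537).

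Among 17 SOCS, DUSP and mRNA-decay genes, 5 were higher and 3 lower (median 0.06, and -0.13 and 0.36 by KO pair; 3 and 2 with number pairs summed), with 8 higher without KO 8. The MAP kinase phosphatases went both ways: Dusp1, which acts on p38 and JNK, was higher (0.67 ± 0.12), whereas Dusp4 (-0.77 ± 0.14) and Dusp6 were lower. Atf3, a repressor of TLR-induced genes, had 186, 178, 212 and 216 CPM in WT and 376, 375, 251 and 272 CPM in KO, with a log2 fold change of 0.68 ± 0.10 (adjusted p = 1.25e-05). Egr1, an ERK-dependent early gene, was lower at -0.98 ± 0.22 (adjusted p = 0.00124). Socs3 was not called (0.01). Socs1, which restrains JAK kinases, had 61.9, 47.1, 60.9 and 66.6 CPM in WT and 85.4, 76, 35.9 and 37.6 CPM in KO, where KO 5 and KO 6 lay above all WT libraries and KO 7 and KO 8 below all of them, and it was not called.

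Of the components of interferon signalling, 7 were higher and 2 lower of 19 (median 0.15, and -0.11 and 0.28 by KO pair; 3 and 1 with number pairs summed), beside 16.2% and 14.6% of all genes. Of the 19 genes 18 had at least 30 CPM, and among all genes of that level 24.6% were higher and 16.6% lower. Without KO 5 and KO 6 the direction turned, with 3 higher and 5 lower, and leaving out any 1 library other than WT 1 left 1 lower. Stat2 (0.00), Irf7 (0.24) and Irf9 (0.00) were not called. Irf1 had 139, 178, 234 and 256 CPM in WT and 354, 349, 317 and 326 CPM in KO, with all KO values above WT, and its log2 fold change was 0.57 ± 0.10 (adjusted p = 0.000176). Irf8 (0.68 ± 0.089), known to act with Irf1 on Il12b, and Irf5 (0.44 ± 0.10) were higher too. Irf3, the factor that starts interferon-beta transcription, fell by -0.43 ± 0.067 on the log2 scale.

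The interferon-inducible GTPases coat and disrupt vacuoles of intracellular pathogens. All 18 tested were higher in KO (median 0.79), 16 of them also without the shallow libraries and 10 with number pairs summed. Leaving out KO 5 and KO 6 gave 17 higher, and leaving out KO 7 and KO 8 gave 18. Without stimulation none was higher and 5 were lower, and after IL-4 2 were higher and none lower. Gbp2, a guanylate-binding protein, had 1073, 1078, 1148 and 1164 CPM in WT and 2152, 2164, 1579 and 2009 CPM in KO, with a log2 fold change of 0.83 ± 0.17 (adjusted p = 0.000486). Gbp6 had 191, 162, 226 and 228 CPM in WT and 461, 486, 389 and 418 CPM in KO, and Iigp1, an immunity-related GTPase, had 387, 277, 439.7 and 446 CPM in WT and 863, 909, 574 and 790.3 CPM in KO. In each of these genes the KO values stood above all WT values, with KO 5 and KO 6 the highest in Gbp2. Irgm1, a regulator of that family, had 382, 283, 400.1 and 419 CPM in WT and 693, 696, 580.1 and 604 CPM in KO, with a log2 fold change of 0.74 ± 0.093 (adjusted p = 1.66e-06). Tgtp1 had 5.16, 10.5, 14.9 and 14.6 CPM in WT and 48.4, 52.2, 35.9 and 51.1 CPM in KO, and Tgtp2, its near-identical copy, had 98, 120.3, 197 and 192 CPM in WT and 277, 291, 233 and 260.4 CPM in KO. The Gbp genes are a family of close copies, so the value of single members is less certain than that of the group.

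Promoters are shown for 4 of these GTPases, since the group moved together and the same motif lay close to the start site in each. Of the 18 genes 9 matched a RefSeq promoter by symbol, and all 9 held GAAANNGAA, the core of the interferon-stimulated response element, on either strand, against 8.57% of all 27025 promoters. The windows run from 250 bases before to 50 after the start, at chr11:48871371-48871670 (minus strand) for Irgm1, chr11:58199306-58199605 (plus) for Igtp, chr11:48992197-48992496 (minus) for Tgtp1 and chr3:142620413-142620712 (plus) for Gbp2, all GRCm38.p6, written in the direction of transcription. Capitals mark the motif, which in Irgm1 is 2 overlapping matches.
Irgm1: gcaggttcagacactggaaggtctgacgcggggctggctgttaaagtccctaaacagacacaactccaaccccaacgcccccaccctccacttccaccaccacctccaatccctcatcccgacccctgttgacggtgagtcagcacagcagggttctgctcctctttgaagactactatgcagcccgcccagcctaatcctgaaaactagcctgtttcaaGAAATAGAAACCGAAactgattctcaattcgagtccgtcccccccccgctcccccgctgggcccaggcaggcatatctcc
Igtp: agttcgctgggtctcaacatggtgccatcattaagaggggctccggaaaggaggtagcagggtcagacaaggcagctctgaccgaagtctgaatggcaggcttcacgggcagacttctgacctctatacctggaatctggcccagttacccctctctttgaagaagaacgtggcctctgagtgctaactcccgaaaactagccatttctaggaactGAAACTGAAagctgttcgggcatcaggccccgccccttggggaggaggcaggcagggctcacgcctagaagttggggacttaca
Tgtp1: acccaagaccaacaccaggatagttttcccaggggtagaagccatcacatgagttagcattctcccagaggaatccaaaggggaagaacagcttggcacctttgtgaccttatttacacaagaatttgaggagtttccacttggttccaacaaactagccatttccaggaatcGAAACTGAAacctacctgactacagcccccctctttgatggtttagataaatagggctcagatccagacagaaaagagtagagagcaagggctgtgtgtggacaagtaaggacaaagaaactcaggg
Gbp2: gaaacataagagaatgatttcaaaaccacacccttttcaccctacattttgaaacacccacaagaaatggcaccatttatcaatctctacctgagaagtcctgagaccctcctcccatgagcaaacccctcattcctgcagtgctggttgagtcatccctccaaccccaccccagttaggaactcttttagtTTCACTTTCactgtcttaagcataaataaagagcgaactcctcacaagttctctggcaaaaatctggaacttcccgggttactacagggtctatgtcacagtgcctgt
Counted from the start site, the first match began at -30 in Irgm1, -34 in Igtp, -77 in Tgtp1 and -58 in Gbp2. Among all tested genes with a promoter in the table, 804 of 11021 (7.3%) held the motif, against 165 of 1769 genes called higher (9.33%) and 106 of 1697 called lower (6.25%). The GAS-like motif TTCNNNGAA was found in 6 of the 9 GTPase promoters, against 8.47% of all promoters.

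Of 31 tested type I interferon-stimulated antiviral genes, 11 were higher and none lower (median 0.30), 6 higher without the shallow libraries and 2 with number pairs summed. In this list 30 genes had at least 30 CPM, and among all genes of that level 24.6% were higher and 16.6% lower. Leaving out KO 7 and KO 8 raised the count to 22, and leaving out KO 5 and KO 6 gave 11 higher and 1 lower. Without WT 3 or without KO 6 there were 7 higher. Rsad2, viperin, had 1970, 2045, 2540 and 2647 CPM in WT and 7117, 7252, 4228 and 4970 CPM in KO, with KO 5 and KO 6 highest and a log2 fold change of 1.35 ± 0.38 (adjusted p = 0.00773). Without the shallow libraries it was 1.32 (adjusted p = 0.0571) and no longer passed. Oasl1 (1.02 ± 0.30) passed in both, whereas Cmpk2 (1.0 ± 0.29) and Ifit2 (0.81 ± 0.24) passed only with all libraries. Ifit1 (0.63 ± 0.29, adjusted p = 0.0982), Isg15 (0.52 ± 0.23, adjusted p = 0.0861) and the RNA sensor gene Ddx58 (0.27 ± 0.13, adjusted p = 0.124) were not called. Of 22 promoters matched for this list 13 held GAAANNGAA.

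**Figure D3:**
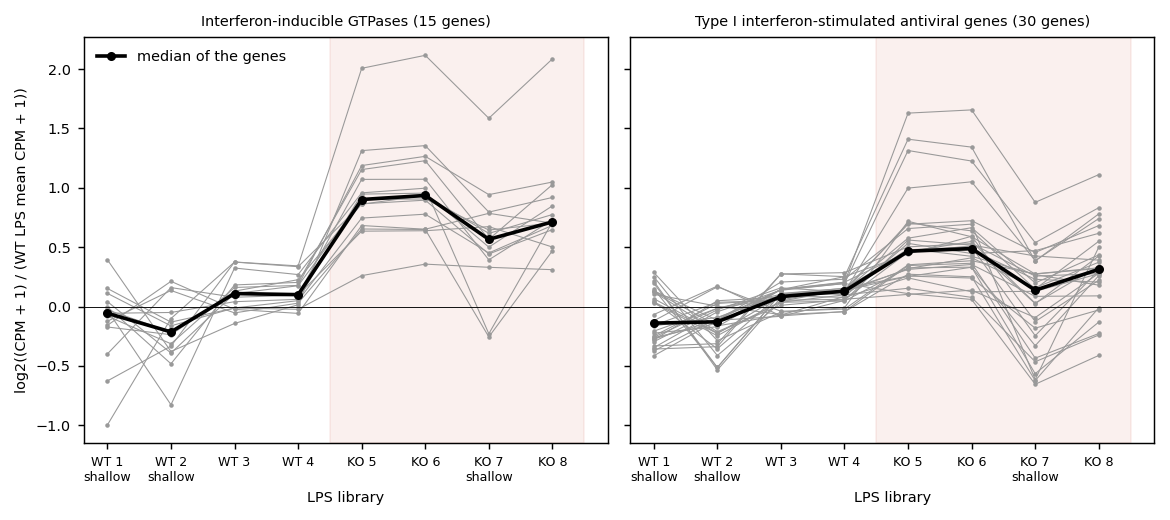
Level of each interferon-inducible GTPase (15 of 18) and antiviral gene (30 of 31) whose mean reached 30 CPM in either genotype after LPS, as log2 of (CPM + 1) over (WT LPS mean CPM + 1), with a line at the median of each library. The GTPases of KO 5, KO 6, KO 7 and KO 8 lie above the WT mean in the median, and the antiviral genes spread more between KO libraries.

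Arginine and polyamine enzymes changed in both directions, with 6 higher and 3 lower of 16 (5 and 3 with number pairs summed). Besides Nos2, the mitochondrial arginase gene Arg2 was higher (2.27 ± 0.39) from a very low level, and Arg1, the cytosolic arginase, was not called (-0.08 ± 0.23, adjusted p = 0.838). The arginine transporter gene Slc7a2 fell (-0.48 ± 0.11), as did Qdpr, which recycles the synthase's cofactor (-0.57 ± 0.10). In polyamine metabolism Sat1, which acetylates spermidine and spermine, had 114, 99.4, 149 and 146 CPM in WT and 303, 299.8, 221 and 298 CPM in KO, with a log2 fold change of 1.05 ± 0.088 (adjusted p = 3.46e-09). Sms, spermine synthase, was higher (0.72 ± 0.081) and Srm, spermidine synthase, had 108, 83.7, 83 and 84.5 CPM in WT and 53.8, 54.8, 53.8 and 53.2 CPM in KO, all KO values lower, with a log2 fold change of -0.65 ± 0.091 (adjusted p = 6.86e-06).

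Genes of the TCA cycle and acetyl-CoA supply included 3 higher and 8 lower of 29 (median -0.08, and -0.19 and -0.04 by KO pair), but only 1 and 2 with number pairs summed. Without WT 4 there were 5 lower. Citrate synthase Cs (-0.44 ± 0.072), Fh1 (-0.42 ± 0.063), Idh3a (-0.31 ± 0.075) and Suclg1 (-0.28 ± 0.085) fell. Acss1, a mitochondrial acetyl-CoA synthetase, had 0, 0, 3.71 and 2.73 CPM in WT and 13.5, 14.8, 17.9 and 18.1 CPM in KO, low in WT, and rose by 2.27 ± 0.16. Irg1 (Acod1), which makes itaconate, was at 2414 ± 222 CPM in WT and 3471 ± 403 CPM in KO (SD, n = 4) and was not called (0.52 ± 0.47, adjusted p = 0.427).

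For glycolysis and the hypoxia response, 14 of 28 tested genes were higher and 2 lower (median 0.22, and 0.22 and 0.34 by KO pair), and 13 and 0 with number pairs summed. Of the core enzymes, Ldha (0.03), Pgk1 (-0.02) and Gapdh (-0.13) were not called, and Pkm (-0.19) and Gpi1 (-0.23) fell, though neither was called without the shallow libraries. Of the glucose transporter, hexokinases and phosphofructokinases, Slc2a1 (0.27), Hk1 (0.40) and Hk3 (0.45) were higher, and Hk2 (0.16), Pfkl (-0.16) and Pfkfb4 (-0.10) were not called. Pfkp, a phosphofructokinase, had 41.3, 57.5, 90.5 and 89.2 CPM in WT and 137, 135, 179 and 156 CPM in KO, with a log2 fold change of 0.74 ± 0.085 (adjusted p = 4.54e-07). Pfkfb3, which makes its activator, had 273, 309, 341 and 344 CPM in WT and 528, 552, 443 and 515 CPM in KO, with a log2 fold change of 0.66 ± 0.086 (adjusted p = 3.08e-06). Of the HIF group, Hif1a (0.37), Bnip3 (0.84), Egln3 (1.23), Adm (0.94), P4ha1 (0.39) and Ndrg1 were higher.

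Prostanoid genes showed 7 higher and 3 lower of 17 (median 0.03, and 0.05 and 0.07 by KO pair; 4 and 3 with number pairs summed). Ptgs2, the inducible cyclooxygenase COX-2, had 51.6, 62.8, 57.6 and 80.2 CPM in WT and 233, 252, 173 and 170.4 CPM in KO, all KO above all WT, with a log2 fold change of 1.67 ± 0.28 (adjusted p = 5.85e-05). Pla2g4a, which frees its substrate, was higher (0.62 ± 0.086), Ptges, a prostaglandin E synthase, was not called (0.11), and the receptor gene Ptger4 fell (-0.59 ± 0.11).

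Cell-death genes were higher in 11 of 23 and lower in 1 (median 0.24, and 0.08 and 0.29 by KO pair; 7 and 0 with number pairs summed), whereas without stimulation 1 was higher and 9 lower. Without KO 8 there were 3 lower genes, without KO 7 and KO 8 there were 4, and without KO 5 and KO 6 there were 2. Casp4 (caspase-11), the sensor of cytosolic LPS, had 119, 88.9, 91.7 and 94.6 CPM in WT and 224, 227, 173 and 204 CPM in KO, with a log2 fold change of 1.20 ± 0.088 (adjusted p = 3.92e-10). Casp1, the inflammasome protease, had 191, 178, 241 and 247 CPM in WT and 449.8, 460.4, 239 and 351 CPM in KO, with overlap between genotypes and a log2 fold change of 0.79 ± 0.11 (adjusted p = 1.05e-05). The death receptor gene Fas (1.03 ± 0.11), Ripk2 (0.56 ± 0.074) and Mlkl, the pore-forming effector of necroptosis (0.42 ± 0.091), were higher. Nlrp3 had 181, 147, 158 and 176 CPM in WT and 149, 154, 162 and 144 CPM in KO and was not called (-0.15 ± 0.11, adjusted p = 0.294). Ripk3, the necroptosis kinase, was not called either (-0.18 ± 0.076, adjusted p = 0.0707), and Nlrp1a was the single lower gene (-1.5 ± 0.35).

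Of 15 tested costimulatory and checkpoint genes, 8 were higher in KO, none was lower and 7 were not called (median 0.45, and 0.23 and 0.57 by KO pair; 6 and 0 with number pairs summed). Without KO 5, KO 6 or both, 1 was lower. Cd40, the receptor for T cell help, had 335, 309, 338 and 376 CPM in WT and 798, 777, 586 and 691 CPM in KO, with a log2 fold change of 1.07 ± 0.11 (adjusted p = 7.22e-08). Cd274, the checkpoint ligand PD-L1, had 299, 481, 505 and 530.0 CPM in WT and 1016, 1082, 897 and 949 CPM in KO, with a log2 fold change of 1.05 ± 0.11 (adjusted p = 9.07e-08). Slamf7, a self-ligand receptor, had 159.9, 94.2, 261 and 269.7 CPM in WT and 724, 737, 317 and 373 CPM in KO, with a log2 fold change of 1.27 ± 0.29 (adjusted p = 0.00149). In all 3 the KO values stood above every WT value. Cd83 (1.66 ± 0.12) and Cd86 (0.45 ± 0.12) were higher as well, and Cd80 was not called (0.10 ± 0.12, adjusted p = 0.577). Of 19 MHC and processing genes 6 were higher and none lower (median 0.29, and 0.05 and 0.37 by KO pair; 2 and 0 with number pairs summed), with 13 higher without KO 7 and KO 8 and 2 lower without KO 5 and KO 6. Those higher included the immunoproteasome genes Psmb8 (0.30), Psmb9 (0.41) and Psmb10 (0.36). The class II genes H2-Ab1 (0.01) and H2-Aa were not called.

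Surface receptors were among the lower genes: 4 of 27 tested were higher and 9 lower (median -0.12, and -0.45 and 0.002 by KO pair; 4 and 7 with number pairs summed). Without KO 5 and KO 6 there were 16 lower, and without KO 7 and KO 8 there were 9 higher. Trem1, an amplifier of inflammation, was low and fell (-1.55 ± 0.31), as did Trem3 (-1.08 ± 0.29), whereas Trem2, a lipid-sensing receptor that uses the same DAP12 adaptor, had 196, 256, 244 and 266 CPM in WT and 364, 327, 305 and 361 CPM in KO and rose by 0.48 ± 0.088 (adjusted p = 0.000189). Pilra (-0.92 ± 0.12), Cd33 (-0.86 ± 0.12) and the inhibitory Fc receptor gene Fcgr2b (-0.35 ± 0.12) fell. Mrc1, the mannose receptor, had 46.4, 10.5, 46.3 and 45.6 CPM in WT and 87.5, 89.5, 83.7 and 70.7 CPM in KO and rose by 0.88 ± 0.15 (adjusted p = 0.000113). Among scavenger and uptake receptors (5 higher and 4 lower of 15; median 0.14, and 0.08 and 0.12 by KO pair; 3 and 2 with number pairs summed), Msr1 (-0.49 ± 0.10) and Stab1 (-0.49 ± 0.11) fell with Marco, and Mertk (0.65 ± 0.11) and Axl (0.36 ± 0.083), receptors for apoptotic cells, rose with Cd5l.

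Chemoattractant receptors included 9 higher and 6 lower of 24 (median 0.12, and -0.23 and 0.23 by KO pair; 4 and 3 with number pairs summed), and 5 higher without KO 5 and KO 6. Besides Cx3cr1 and Ccr1, the medium-chain fatty acid receptor gene Gpr84 had 609, 659, 662 and 709 CPM in WT and 389, 361, 490.4 and 485 CPM in KO, all KO lower, with a log2 fold change of -0.68 ± 0.17 (adjusted p = 0.0039), and C5ar1 fell by -0.42 ± 0.12. Ccrl2, an atypical chemerin receptor, had 72.2, 68, 125 and 137 CPM in WT and 277, 291, 197 and 222 CPM in KO, all KO higher, with a log2 fold change of 1.06 ± 0.13 (adjusted p = 1.43e-06), and Ptafr, the receptor for platelet-activating factor, rose by 0.75 ± 0.11.

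Matrix genes went both ways (7 higher and 3 lower of 18; median 0.20, and 0.09 and 0.26 by KO pair), but 1 and 2 were left with number pairs summed and 3 and 5 without KO 5 and KO 6. Mmp8 (-0.86) and Adam8 (-0.29) fell, Mmp12 (-0.26) and Mmp14 (-0.21) were not called, and Timp3 (0.67), which stromal cells also make, was higher. In iron handling (4 higher and 2 lower of 13, the same counts with number pairs summed; median 0.01, and -0.20 and 0.08 by KO pair; 5 lower without KO 5 and KO 6), Hmox1, heme oxygenase 1, had 1480, 1480, 1489 and 1489 CPM in WT and 2707, 2582, 1746 and 2054 CPM in KO and rose by 0.64 ± 0.10 (adjusted p = 1.67e-05) with Slc40a1. Slc11a1, the phagosomal metal transporter NRAMP1, had 449, 654, 544 and 548 CPM in WT and 429.7, 412, 287 and 303 CPM in KO and fell by -0.55 ± 0.12 on the log2 scale.

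Complement and acute-phase genes were higher in 7 of 14 and lower in 1 (median 0.30; 4 and 0 with number pairs summed). The lower gene was not called without WT 4 or without KO 8, and 2 were lower without KO 5 and KO 6. The chains of C1q, made by macrophages, rose together, with C1qb at 1207, 1046, 1183 and 1126 CPM in WT and 2023, 1932, 1465 and 1658 CPM in KO and log2 fold changes of 0.37 ± 0.093 for C1qa, 0.65 ± 0.12 for C1qb and 0.42 ± 0.11 for C1qc. Ptx3, a secreted pattern-recognition protein, had 273, 225, 233 and 264 CPM in WT and 739, 729.9, 520.3 and 541 CPM in KO, with a log2 fold change of 1.39 ± 0.14 (adjusted p = 3.97e-08). C4b (1.53) and C1ra (0.87) were higher, and as with Ptx3 stromal cells also make them. Properdin, Cfp, fell (-0.62 ± 0.18), and Saa3 at 24870 ± 2496 CPM in WT and 15900 ± 2762 CPM in KO (SD, n = 4) was not called (adjusted p = 0.489).

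Stress programmes differed from each other. Amino acid response genes, driven by ATF4, were higher in 15 of 25 and lower in none (median 0.33; 6 and 0 with number pairs summed), and 14 were already higher without stimulation. Without WT 4 there were 9 higher after LPS. Ddit3, encoding CHOP, had 87.7, 57.5, 81.3 and 79.3 CPM in WT and 145, 144, 102 and 143 CPM in KO, with a log2 fold change of 0.84 ± 0.086 (adjusted p = 8.75e-08). Trib3 (0.83 ± 0.11), Nupr1 (0.84 ± 0.14), Vldlr (1.17 ± 0.10) and Psat1 (0.58 ± 0.089) were higher, and Atf4 RNA was not called (0.16 ± 0.10, adjusted p = 0.264). TGATGNAA lay in 6 of the 21 promoters of this list that matched.

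ER chaperones showed no gene higher and 5 lower of 18 (median -0.08, and -0.08 and -0.03 by KO pair; 0 and 3 with number pairs summed, and 3 lower without WT 4, without KO 6 or without KO 8), with Hspa5 not called (0.08) and Hyou1 (-0.43), Manf (-0.35) and Xbp1 (-0.36) lower. Heat shock genes gave 4 higher and 4 lower of 16 (median 0.06, and -0.05 and 0.09 by KO pair; 4 and 1 with number pairs summed, and 1 lower without WT 3, without WT 4 or without KO 6, and 2 without KO 5): Hspa1a, Hspa1b, Dnaja1 (0.62) and Hsp90aa1 (0.36) rose, and Hsf1, the factor that drives them, fell (-0.48). These 16 genes all had at least 30 CPM, and among all genes of that level 24.6% were higher and 16.6% lower. NRF2 targets were higher in 13 of 19 and lower in none (median 0.39, and 0.24 and 0.47 by KO pair). There were 7 higher with number pairs summed, and 7 higher and 3 lower without KO 5 and KO 6, while without stimulation none was higher and 5 were lower. Srxn1, a redox-repair enzyme, had 129, 199, 144 and 147 CPM in WT and 259.5, 258, 239 and 226 CPM in KO, with a log2 fold change of 0.74 ± 0.067 (adjusted p = 1.44e-08), and Txn1 (0.46 ± 0.080), Gclm (0.52 ± 0.13) and Sqstm1 (0.46 ± 0.072) were higher.

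More proliferation genes were lower than higher. Of 34 tested, 2 were higher and 18 lower (median -0.34; 1 and 10 with number pairs summed), and 23 were lower without stimulation and 33 after IL-4, where 17.9% of all genes were higher and 18.2% lower. Mcm5, of the replicative helicase, had 46.4, 31.4, 51.7 and 43.9 CPM in WT and 30.9, 27.3, 29.9 and 27 CPM in KO, with a log2 fold change of -0.74 ± 0.11 (adjusted p = 2.11e-05). E2f1 (-0.73 ± 0.10), Plk1 (-0.75 ± 0.11) and Cdc20 (-0.65 ± 0.089) fell, and Pcna (0.44 ± 0.085) was higher.

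Lipid genes gave 4 higher and 5 lower of 28 (median 0.0035, and -0.28 and 0.04 by KO pair; 3 and 1 with number pairs summed). Without KO 5 and KO 6 there were 13 lower, without KO 7 and KO 8 there were 9 higher, and without WT 3, WT 4 or KO 8 there were 2 or 3 lower. Pltp, a phospholipid transfer protein induced by LXR, had 46.4, 68, 80.9 and 71.1 CPM in WT and 183, 181, 126 and 147 CPM in KO, with a log2 fold change of 1.18 ± 0.10 (adjusted p = 5.84e-09), and Abcg1 (0.75 ± 0.084) rose while Abca1 (-0.48 ± 0.12), the other cholesterol exporter, fell. In insulin and mTOR signalling 5 were higher and 4 lower of 24 (median 0.05, and 0.0084 and 0.05 by KO pair; 3 and 2 with number pairs summed, and 3 and 2 without WT 4). The counts of both lists lay near the shares over all genes tested, 16.2% higher and 14.6% lower. Rps6kb1, which encodes S6 kinase 1, had 30.9, 15.7, 31.1 and 29.7 CPM in WT and 27.9, 32.9, 65.8 and 33.9 CPM in KO and was not called (0.08 ± 0.10, adjusted p = 0.569). Irs1 (0.59) and Rheb (0.42) were higher and Pik3cg (-0.66) was lower.

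Macrophage identity genes gave 7 higher and 9 lower of 23 (median -0.17, and -0.31 and -0.08 by KO pair; 4 and 5 with number pairs summed), with 4 higher without KO 5 and KO 6. Csf1r, the receptor for the growth factor that maintains these cells, had 990.2, 1078, 1173 and 1187 CPM in WT and 929, 917, 688 and 751 CPM in KO, with a log2 fold change of -0.42 ± 0.13 (adjusted p = 0.0129). Itgam, the CD11b integrin chain, had 645, 858, 896 and 884 CPM in WT and 578, 613, 377 and 487 CPM in KO, with a log2 fold change of -0.64 ± 0.11 (adjusted p = 7.32e-05). Both had all KO values under all WT values, and Maf (-0.55), a factor of mature macrophages, was lower. Spi1 (0.08) and Cebpa (-0.17) were not called, and Klf4 (0.84) and Mitf (0.34) were higher.

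Setting the LPS difference against the unstimulated one, 753 genes were higher in KO in both states, which is 31.6% of those higher after LPS and 43.3% of those higher without stimulation. For lower genes the shared number was 774, or 36% and 50.2%. With IL-4 the shared numbers were 990 higher genes (41.5% of the LPS genes and 37.6% of the IL-4 genes) and 1170 lower ones (54.4% and 43.7%). Another 85 genes were higher after LPS and lower without stimulation, and 39 were lower after LPS and higher without stimulation. The difference between the genotype effects (the interaction) was above 0 in 6.62% of genes and below 0 in 4.79% for LPS against no stimulation, and above 0 in 7.15% and below in 4.75% for LPS against IL-4. Both were above 0 in 4.35% of genes and below in 2.48%. Both interactions use the same LPS libraries. The interaction against no stimulation was called for 1676 genes, but for 65 with number pairs summed, and the interaction against IL-4 for 1748 and 97.

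Among the genes called in both interactions with the same sign and with at least 30 CPM in the higher LPS group, Slc40a1 had the largest positive value, an interaction of 2.55 ± 0.34 (adjusted p = 2.51e-05) against no stimulation. Its means without stimulation were 173 CPM in WT and 131 CPM in KO. Serpina3g (2.19), Il27 (2.03), Tnip3 (1.99), Ptgs2 (1.97), Ednrb (1.95), Tgtp1 (1.94) and Hspa1a (1.87) followed. Tnip3 was lower in KO without stimulation (-0.98) and higher after LPS (1.01). Il12b, whose interaction was 1.41 ± 1.03 (adjusted p = 0.421), was not called there: it was near 0 without stimulation, with means of 0.0349 CPM in WT and 0.176 CPM in KO. Of the GTPases 12 of 18 had an interaction above 0 against no stimulation, as did 13 of the 21 NF-kB genes. Against IL-4 this held for 5 of the 18 GTPases and 11 of the 21 NF-kB genes. In the NF-kB list 13 genes were lower in KO without stimulation and 9 were higher after LPS, so an interaction above 0 there includes differences that were below 0 without stimulation.

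By the same rule, negative interactions were led by Wisp1, a secreted matricellular protein that stromal cells also make, at -1.39 ± 0.43 (adjusted p = 0.0349), whose genotype difference was 1.29 without stimulation and -0.10 after LPS. Il1a, an alarmin of the IL-1 family, had -1.27 ± 0.30 (adjusted p = 0.00565), with 87.7, 115, 88.3 and 107 CPM in WT and 61.1, 65, 132 and 90.8 CPM in KO after LPS. Siglec1 (-1.0), Dio3 (-1.01), the Notch ligand gene Jag1 (-0.99), Pcdh7 (-0.94), Egr1 (-0.91) and Pprc1 (-0.88) were the others.

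**Figure D4:**
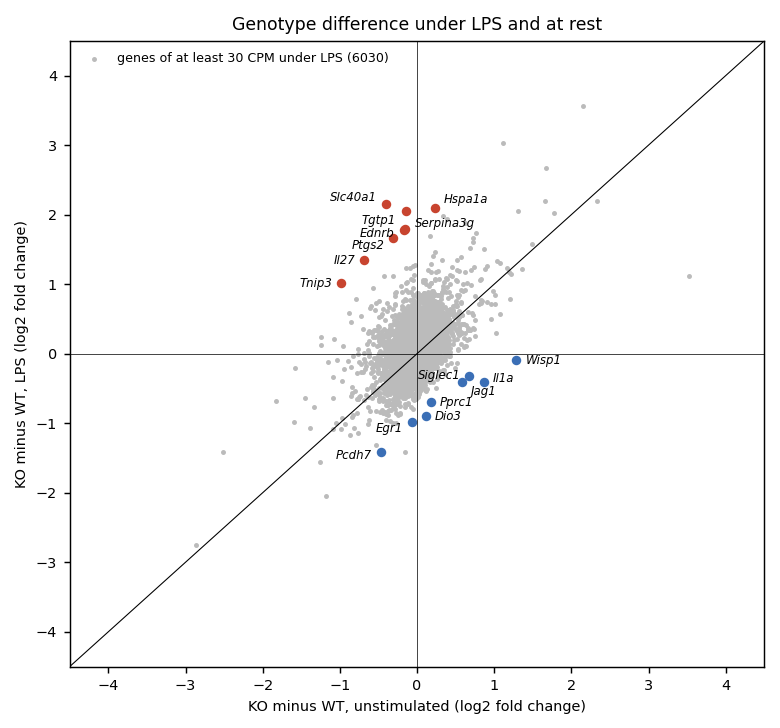
Log2 fold change of KO over WT without stimulation (x axis) and after LPS (y axis) for the 6030 genes of at least 30 CPM, with the 16 named interaction genes labelled. Slc40a1, Serpina3g and Il27 lie high on the y axis and near or under 0 on the x axis, and Wisp1 and Il1a lie to the right and under 0 on the y axis.

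The shallow libraries were checked directly. Of 241 called genes covered by the naming rules, 235 kept their call without WT 1, WT 2 and KO 7, and 6 did not: Rsad2, Cmpk2, Ifit2, H2-K1, Hp and Creld2. Pkm and Gpi1, named in the text outside those rules, also lost their call. Another 11 genes covered by the rules passed the test only without the shallow libraries, and 12 that were not called changed sign. The log2 fold changes with and without them were, for Il12b 3.56 and 3.57, Nos2 2.20 and 2.25, Mmp9 -2.76 and -2.82, Gbp2 0.83 and 0.88, where a call without the shallow libraries was part of the choice of Il12b, Nos2 and Mmp9 as leading genes. The shallow libraries lay lower than the deep ones of their group by a median log2 difference of -0.129, -0.159 and -0.255 over genes of at least 100 CPM. When the deep LPS libraries were thinned to 201097 counts, 132 genes were higher and 39 lower. Few genes had the KO pairs on opposite sides of all WT libraries. KO 5 and KO 6 lay above and KO 7 and KO 8 below in 44 of the 6030 genes (0.73%), Socs1, Fcer1g and Fcgr4 among them. The reverse held in 13 (0.216%). Genes in which the KO pairs differed otherwise are not in these counts.

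**Figure D5:**
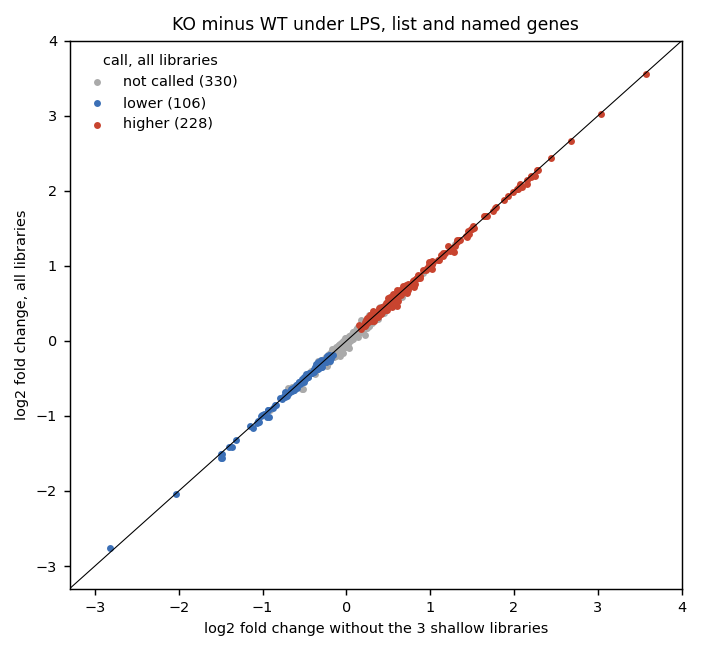
Log2 fold change of KO over WT after LPS without the 3 shallow libraries (x axis) and with all 8 libraries (y axis) for the genes of the lists and the named genes: 228 called higher, 106 called lower and 330 not called. The points run along the diagonal, and the called genes keep their sign.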

How the data were processed

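RNA of 24 libraries (6 groups of 4) was analysed from the deposited counts of reads per gene symbol, which the authors made with TopHat2 2.1.0 and HTSeq 0.9.1 on mm10 (GRCm38), per the submitters' processing notes. RNA was isolated with the RNeasy Plus Mini Kit, per the labels' protocols. The sources used here do not state the annotation, the library kit or the strand setting. Reads of overlapping and antisense genes therefore cannot be told apart, and near-identical genes can share reads. Each library holds 24421 symbols and 5 summary lines, which were left out of all totals. In the LPS libraries reads with no feature were 3.11 to 3.48%, ambiguous reads 2.05 to 2.24% and reads not unique 3.96 to 4.5% of all lines.

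Groups were taken from the labels, and all 24 libraries entered a single fit with edgeR 4.0.16 in R 4.3.3 (quasi-likelihood test after TMM scaling and filterByExpr, 1 coefficient per group, 18 residual degrees of freedom). Of the symbols, 14693 genes were tested, and calls required an adjusted p (Benjamini-Hochberg, over all of them) under 0.05, for KO against WT in each state and for the interactions of LPS with no stimulation and with IL-4. CPM use effective library sizes. Totals ranged from 63429271 to 94942464 in 21 libraries, and were 172771 to 209368 in 3 LPS libraries, where low genes have little precision. The code was tested on simulated data.

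Ogt and Mgea5 are named first. The leading genes are the 15 with the largest change in each direction that were called, did not overlap between genotypes, averaged at least 30 CPM in the higher genotype and were called the same way without the shallow libraries. For each list the rule names up to 8 called members by adjusted p and members of at least 30 CPM that were not called. Beside these, a set of inflammatory genes is covered whatever the test, and 8 genes in each direction called in both interactions. A few other list members are named in the text with their values, chosen after their values were seen. The members, the 31 lists and the tests were chosen with earlier results of these data known. Lists are described by counts and medians, with no test of the list. A few genes covered by these rules are not reported here, though they stay in the counts of the lists.

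The 19 alternatives were: without the 3 shallow libraries; the 8 LPS libraries only; DESeq2 1.42.0; RLE size factors; no filter; genes of at least 30 CPM; deep LPS libraries thinned to 201097 counts; number pairs summed; without KO numbers 5 and 6 or 7 and 8; limma 3.58.1 voom with the label number as replicate block; and each LPS library left out. Label numbers are not shared between genotypes, so they pair libraries across states only, with a consensus correlation of 0.2047. Positions and promoters come from RefSeq tables of GRCm38.p6, in which 23204 of 24421 symbols matched.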

Additional observations from a re-analysis of the deposited data

Results flagged for a closer look

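Of 126 groups of 4 values checked, 20 held a library that stood far from the other 3, and chance alone gives about 1 in 20 groups. The total of KO 7, at 172771 counts, stood apart from the other KO libraries. Shallow libraries held 14 of the other 19 cases. WT 1 had 0 CPM of Slc40a1, 0 CPM of Slamf1 and 30.9 CPM of Ccr1. WT 2 had 62.8 CPM of Ptpn7, 5.23 CPM of Il12a, 83.7 CPM of Arg1 and 15.7 CPM of Rps6kb1. KO 7 had 17.9 CPM of Entpd1, 5.98 CPM of Clec5a, 0 CPM of Il6, 23.9 CPM of Cd80, 23.9 CPM of Ripk3, 65.8 CPM of Rps6kb1 and 12.0 CPM of Egr1. At full depth KO 8 stood apart for Cx3cr1 at 46.1 CPM, Ptpn7 at 32.6 CPM, Tnf at 212.5 CPM and Jag1 at 105.4 CPM, and WT 4 for Cd14 at 1267 CPM.

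The genotype difference after LPS differed from that without stimulation, by the interaction test, in 32 of 62 named genes. The 62 genes include the interaction genes, which were chosen for passing this same test and so are all among the 32. They also include leading genes, which were chosen for a large difference after LPS. The count therefore does not show how common such differences were. Over all 14693 genes tested, the interaction was above 0 in 6.62% and below 0 in 4.79%. Among leading and interaction genes the log2 values above 0, LPS minus unstimulated, were 2.55 for Slc40a1, 2.19 for Serpina3g, 2.03 for Il27, 1.99 for Tnip3, 1.97 for Ptgs2, 1.95 for Ednrb, 1.94 for Tgtp1, 1.87 for Hspa1a, 1.65 for Entpd1, 1.55 for Tma16, 1.26 for Fabp4, 1.0 for Cd5l and 0.96 for Ndrg1. Among the inflammatory genes they were 1.94 for Il10, 1.26 for Il6, 1.15 for Cd40, 1.03 for Irf1, 0.68 for Irf8, 0.63 for Tnf, 0.52 for Mlkl and 0.47 for Irf5. Values below 0 were -1.39 for Wisp1, -1.27 for Il1a, -1.01 for Dio3, -1.0 for Siglec1, -0.99 for Jag1, -0.94 for Pcdh7, -0.91 for Egr1, -0.88 for Pprc1, -0.86 for Cx3cr1, -0.78 for Erdr1 and -0.72 for Clec5a.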

How the results depend on the processing

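The counts of genes higher (2384) and lower (2150) in KO after LPS were 132 and 39 with the deep LPS libraries thinned, 1142 and 946 with number pairs summed, 1556 and 1177 with genes of at least 30 CPM alone, 1620 and 1051 with DESeq2, and 1698 and 1608 with the 8 LPS libraries alone. They were 2492 and 2251 without the 3 shallow libraries, 2174 and 2181 without KO 5 and KO 6, and 3149 and 2485 without KO 7 and KO 8. Leaving out each library gave 1724 to 2604 higher and 1275 to 2144 lower, the lowest without WT 4 (1275 lower) and WT 3 (1278 lower), the deep WT libraries. The interaction against no stimulation (1676 genes) fell to 858 with DESeq2, 91 with thinning and 65 with number pairs summed, and ranged from 942 (without WT 3) and 1015 (without WT 4) to 1992 with a library left out. The interaction against IL-4 (1748 genes) fell to 935, 72 and 97 in the same order, with 908 (without WT 3) and 1129 (without WT 4) to 2030. No interaction can be had from the 8 LPS libraries alone. With the label number as replicate block, 2430 genes were higher and 2263 lower, and the interactions had 2642 and 2581 genes. Higher genes were 52.6% of the called ones, 60.7% with DESeq2, 77.2% with thinning and 49.9 to 57.8% otherwise, and the median log2 fold change of all genes was at most 0.0374 (0.0118 with all libraries).

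Of 480 genes covered by the naming rules, 241 were called and 50 of these kept their call in all 19 alternatives. In 21 cases a called log2 value changed sign, or a value that was not called passed the test with the opposite sign, and the cause was not tested. Without KO 5 and KO 6 the log2 values were 0.44 for Wisp1, -0.29 for Il1rn, -0.74 for Socs1, -0.29 for Socs3, -0.40 for Batf2, -0.25 for Tnfrsf1a, -0.44 for Fcgr3, -0.61 for Fcgr4, -0.30 for Cyp51, -0.27 for Fdft1, -0.38 for Sqle and -0.31 for Spi1. Without KO 7 and KO 8 Fcer1g was 0.30. With thinning they were -0.10 for Amdhd2, -0.30 for Ticam2, -0.21 for Dusp10, -0.36 for Pdk3, 0.25 for Pdhb, 10.88 for P2ry12 (few counts), 0.27 for Sdf2l1 and 1.11 for Cdc6. Genes under about 15.5 CPM cannot be measured in single shallow libraries.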

Other observations

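Ifi202b, an interferon-inducible DNA-binding protein, was chosen after its values were seen, because it separated libraries by label number. After LPS it had 237, 209, 76.4 and 78.4 CPM in WT and 0.314, 0.587, 257 and 240 CPM in KO. Without stimulation it had 14.7, 15.5, 4.95 and 6.12 CPM in WT and 0.0303, 0, 11.3 and 11.4 CPM in KO. After IL-4 it had 14.2, 15.2, 5.52 and 5.88 CPM in WT and 0, 0.11, 12.7 and 13.3 CPM in KO. Numbers 5 and 6 were at or near 0 and numbers 3 and 4 intermediate in all 3 states.

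Among genes of at least 30 CPM with KO 5 and KO 6 above and KO 7 and KO 8 below all WT libraries, Fcer1g had means of 1478 and 690 CPM in the KO pairs, Fcgr4 350.3 and 146.8 CPM, Batf2 94.7 and 46.2 CPM, and Socs1 80.7 and 36.8 CPM. These 4 were chosen for KO values on both sides of WT, so a call by genotype was unlikely from the start. The fit by genotype alone called none of them.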
